A study of Mus musculus with 4 samples.

Results

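Follicular helper CD4 T cells were picked out by their transcripts in T cells sorted from tumour-draining lymph nodes. A cell barcode counted as a follicular helper cell when it held no unique molecular identifier (UMI, 1 counted transcript) of Cd8a, Cd8b1, Foxp3 or Cd79a and at least 1 UMI over Cd3e, Cd3d and Cd3g. It also had to hold at least 1 UMI in each of 2 or more of 6 markers, which were Cxcr5, Pdcd1, Tox2, Il21, Sostdc1 and Bcl6. Barcodes with fewer than 300 genes or over 10% of UMIs from mitochondrial genes had been set aside. The rule found 1119 cells among 46444 T cells that passed the Cd3 and Cd79a gates, out of 48578 kept barcodes.

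All mice carried MC38-OVA tumours, made from a mouse colon carcinoma line that expresses ovalbumin. The 4 groups had 1 library each. KO-DOX came from mice with a conditional knockout of PD-L1 (Cd274) in dendritic cells, given doxorubicin, an anthracycline that damages DNA. KO-CTRL came from mice of the same genotype on the control treatment, WT-DOX from mice of the control genotype given doxorubicin, and WT-CTRL from mice of the control genotype on the control treatment. The number of mice in a library, the Cre driver and the dose are not given in the labels. The deletion is aimed at dendritic cells, so Cd274 UMIs in T cells do not check the genotype labels. Differences between libraries have no replicate check, and intervals on them cover counting error only. Libraries served as replicates for comparisons between cell sets, and those p-values measure the spread between these 4 libraries.

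As background, follicular helper cells arise when an activated CD4 T cell turns on the repressor Bcl6 and the chemokine receptor Cxcr5, which draws it towards the B cell follicle. There the cell gives B cells contact signals through CD40 ligand and the SLAM receptors and secretes interleukin-21 and interleukin-4, which drive germinal centre reactions and antibody class switching. Programmed death 1, encoded by Pdcd1, is carried at high levels on these cells and limits their number and their signalling. Egress and homing genes such as S1pr1 and Ccr7, and the factor Klf2 that keeps them on, are turned down as the cells commit to the follicle.

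The rule chose deeper cells than the average. The median UMI count per follicular helper cell was 3924 in KO-DOX, 4640 in KO-CTRL, 4288 in WT-DOX and 4793 in WT-CTRL, while gated T cells of the 4 libraries had medians between 3045.5 and 3123. Together the follicular helper cells held 1900829, 2112386, 1104553 and 1678475 UMIs in KO-DOX, KO-CTRL, WT-DOX and WT-CTRL. A Cd4 UMI was present in 72.9% of them in KO-DOX, 82.3% in KO-CTRL, 75.9% in WT-DOX and 79.8% in WT-CTRL. In all, 1268 barcode sequences occurred in 2 libraries and 15 in 3, and 22, 17, 6 and 18 follicular helper cells of KO-DOX, KO-CTRL, WT-DOX and WT-CTRL carried such a barcode. A cycling marker, Mki67 or Top2a, was seen in 24.0%, 27.4%, 21.6% and 26.9% of the cells in the same order of libraries, and these cells were deeper (medians 6415 to 9841 UMIs) than the rest (3547 to 4436). A UMI of 1 of 6 B cell genes was present in 48.2% to 55.5% of the cells, nearly always Ighm, against 33.5% to 37.2% of CD4 cells with no follicular marker, while Ms4a1 and Igkc were at 0 in every library. Summed B cell marker levels (15 genes) were 280 to 351 CPM (a gene's counts scaled to a common total per library and cell set) in the follicular helper cells and 219 to 247 CPM in the marker-negative CD4 cells. They were higher in 2 other sets defined below, at 414 to 577 CPM in activated and 746 to 1024 CPM in Foxp3-positive CD4 cells. Of 12 dendritic and myeloid markers, 9 to 11 were at 0 in a library, Lyz2, Itgax and Csf1r among them. Trdc, the gamma delta receptor constant gene, was found in 0%, 0.946%, 2.01% and 2.37% of the cells in KO-DOX, KO-CTRL, WT-DOX and WT-CTRL. Summed markers of natural killer T (NKT) cells (6 genes) were 5.96 to 12.7 CPM, against 0.556 to 1.64 CPM in marker-negative cells. They were 1.56 to 5.31 CPM in activated and 0 to 3.20 CPM in Foxp3-positive cells. The part of these cells in the results was not tested, and results that moved without them are given in the closing section. Cells with NKT markers were not left out in any setting.

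The 6 markers chose the cells, so their levels are a description with no test. Tox2, a transcription factor of the follicular programme, was the most often seen, with a UMI in 76.9% of follicular helper cells in KO-DOX, 71.6% in KO-CTRL, 80.9% in WT-DOX and 71.1% in WT-CTRL. Pdcd1 followed with 55.4%, 55.8%, 62.8% and 56.9% in KO-DOX, KO-CTRL, WT-DOX and WT-CTRL, and Bcl6 with 49.4%, 51.7%, 47.7% and 56.1% in the same libraries. Cxcr5 was seen in 36.6% to 46.2% of the cells and Il21 in 34.9% to 42.7%, so most cells called by this rule lacked a UMI of the receptor that gives the population its usual surface definition. Sostdc1, a secreted antagonist of BMP and WNT signals, differed most between libraries. It was seen in 39.7% of the cells in KO-DOX (exact 95% interval 34.6% to 45.1%), 34.7% in KO-CTRL, 28.6% in WT-DOX and 26.9% in WT-CTRL (21.5% to 32.8%). Its level was 600 CPM in KO-DOX, 436 CPM in KO-CTRL, 325 CPM in WT-DOX and 300 CPM in WT-CTRL, with up to 64 UMIs in 1 cell. The KO libraries were thus above the WT libraries for Sostdc1 in share and in level. The share intervals of KO-CTRL (29.5% to 40.2%) and WT-DOX (22.5% to 35.5%) overlapped. Cxcr5 ran the other way, at 38.0%, 36.6%, 46.2% and 41.1% in KO-DOX, KO-CTRL, WT-DOX and WT-CTRL. As both markers chose the cells, neither order is a result about the genotypes.

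Of the 1119 cells, 504 (45.0%) held exactly 2 markers, 324 (29.0%) held 3, 166 (14.8%) held 4, 98 (8.76%) held 5 and 27 (2.41%) held all 6. The number of markers found grew with depth, from a median of 4067.5 UMIs in cells with 2 markers to 6253 UMIs in cells with 6. The pair found together most often was Pdcd1 with Tox2, in 469 cells, then Tox2 with Bcl6 in 415 and Cxcr5 with Tox2 in 349. As a measure of background, 2 or more markers were found in 0.836%, 0.804%, 0.394% and 0.485% of cells with CD8 transcripts in KO-DOX, KO-CTRL, WT-DOX and WT-CTRL, whose median depths were 3433.5 to 3523 UMIs. The same count in shallower CD4 cells (medians 2957 to 3161 UMIs) was 15.5% in KO-DOX, 11.4% in KO-CTRL, 8.91% in WT-DOX and 9.91% in WT-CTRL. After each cell was thinned to 2000 UMIs, the shares were 11.1%, 6.53%, 5.98% and 5.58% of CD4 cells in KO-DOX, KO-CTRL, WT-DOX and WT-CTRL, against 0.0932% to 0.426% of CD8 cells.

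**Figure D1:**
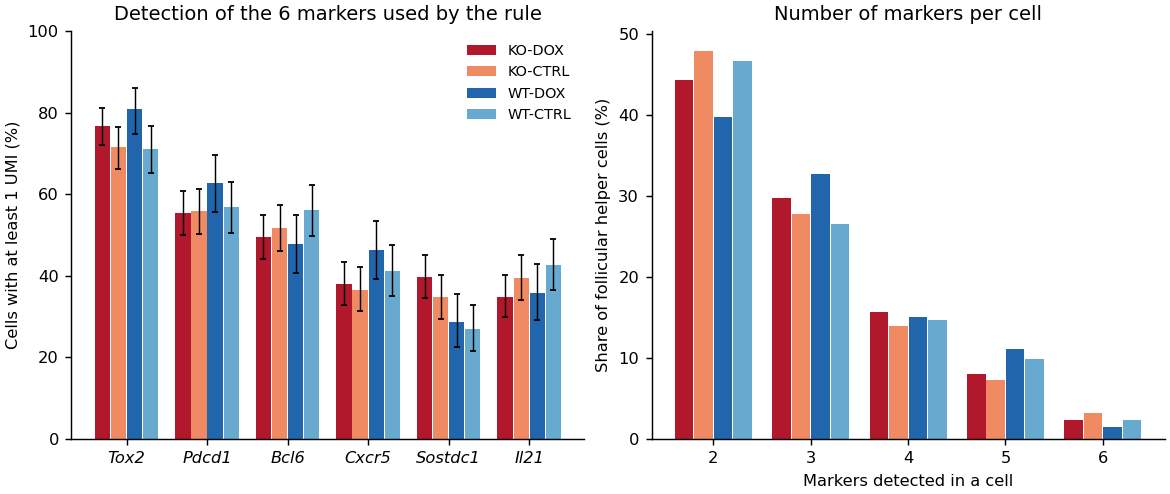
Make-up of the follicular helper cells by library. Left, percent of cells with at least 1 UMI of each of the 6 markers, with exact 95% intervals; right, percent of cells holding 2 to 6 of the markers. Tox2 was the most frequent marker in every library, and Sostdc1 was seen in 39.7% of KO-DOX cells and 26.9% of WT-CTRL cells.

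The study's design asks whether doxorubicin and the dendritic cell knockout alter nodal T cells. Follicular helper cells made up 3.53% of gated T cells in KO-DOX (350 of 9903, exact 95% interval 3.18% to 3.92%), 2.55% in KO-CTRL (317 of 12431, 2.28% to 2.84%), 1.67% in WT-DOX (199 of 11896, 1.45% to 1.92%) and 2.07% in WT-CTRL (253 of 12214, 1.83% to 2.34%). The share was highest in KO-DOX, whose interval was apart from the other 3, and lowest in WT-DOX, whose interval overlapped that of WT-CTRL. The doxorubicin library was 1.39 times its control in KO mice (95% interval 1.19 to 1.61) and 0.808 times its control in WT mice (0.672 to 0.971). KO-CTRL stood at 1.23 times WT-CTRL (1.05 to 1.45) and KO-DOX at 2.11 times WT-DOX (1.78 to 2.51). The ratio of the KO doxorubicin ratio to the WT one was 1.72 (1.35 to 2.18). With 1 library in each group none of these differences was tested against the spread between mice. Cells with CD8 transcripts showed the same order of libraries for 2 or more markers. They held them in 0.836% of KO-DOX, 0.804% of KO-CTRL, 0.394% of WT-DOX and 0.485% of WT-CTRL cells. Whether the share ratios are particular to CD4 cells was not tested.

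The share ratios were also taken with other markers, denominators and cell filters. Across 13 such ways of counting, the KO doxorubicin ratio lay between 1.23 and 1.59 and the KO-DOX over WT-DOX ratio between 1.74 and 2.21, and the interval left out 1 in 13 of 13. The WT doxorubicin ratio lay between 0.768 and 0.926, and its interval left out 1 in 4 of 13. It was 0.926 after thinning to 2000 UMIs and 0.913 among cells with 3 or more markers. The KO-CTRL over WT-CTRL ratio lay between 1.07 and 1.32, with an interval that left out 1 in 9 of 13. Among T cells with no Cd8a, Cd8b1 or Foxp3 UMI, follicular helper cells were 7.39% in KO-DOX, 5.03% in KO-CTRL, 3.61% in WT-DOX and 4.24% in WT-CTRL.

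**Figure D2:**
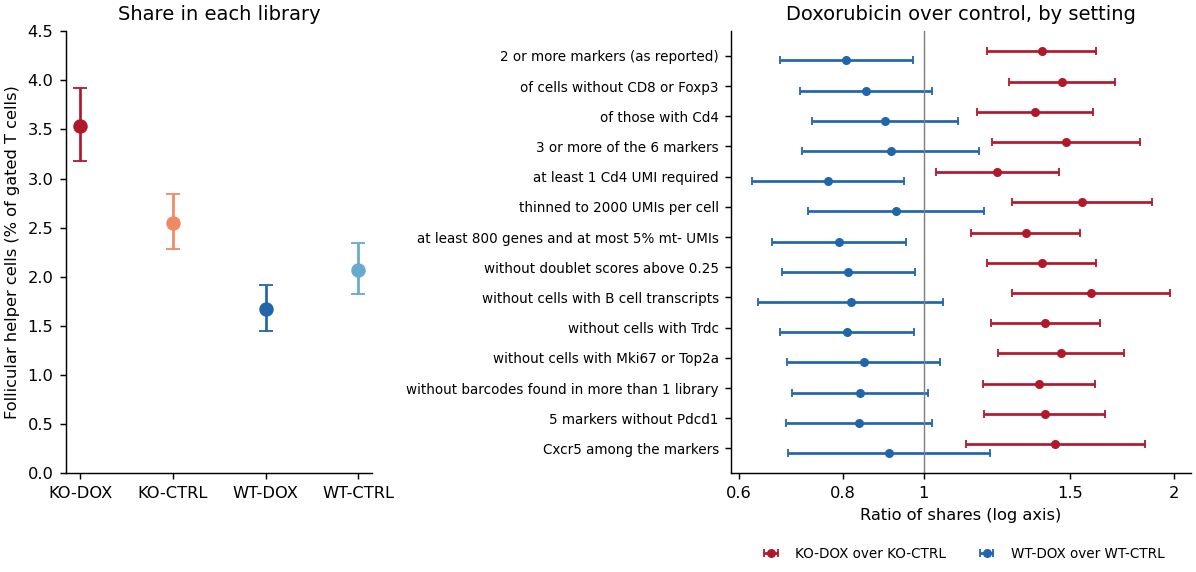
Share of follicular helper cells. Left, percent of gated T cells in each library with exact 95% intervals; right, doxorubicin over control ratio of that share in KO and WT mice as reported and under the other ways of counting, with 95% intervals on a log axis. The KO ratio stays above 1 in each setting drawn, at 1.23 to 1.59, and the WT ratio lies at 0.768 to 0.926 with most intervals crossing 1.

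To place the cells among other CD4 cells, UMIs were summed per library and cell set. Each comparison was fitted on its own, with library as a block (edgeR quasi-likelihood test, Benjamini-Hochberg adjusted p under 0.05). The 3 other sets were marker-negative, activated and Foxp3-positive CD4 cells. The first held 5983 cells with a Cd4 UMI and none of the 6 markers. The second held 460 of these that carried at least 2 of the activation genes Cd44, S100a4, Itgb1 and Ahnak. The regulatory set held 764 cells with a Foxp3 UMI and no Cd8a or Cd8b1 UMI. It required no Cd4 UMI (53.5% to 55.0% of its cells had 1) and did not exclude the 6 markers. No Cd4 UMI was required of the follicular helper cells either. Against the marker-negative cells, 2824 of 9923 genes (28.5%) were higher in follicular helper cells and 2777 (28%) lower. Against the activated cells 381 of 8007 genes (4.76%) were higher and 589 (7.36%) lower, and against the Foxp3-positive cells 1209 of 8973 (13.5%) were higher and 1351 (15.1%) lower. Without WT-CTRL the counts against activated cells were 193 higher and 378 lower, and without KO-DOX 250 were higher. The median log2 fold over all genes was within 0.01 of 0 in each comparison. The rule's own genes take no test. The marker-negative cells were shallower (medians 2780 to 3001 UMIs) than the activated (3560.5 to 3942) and the Foxp3-positive cells (4034 to 4329).

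Among transcription factors of the follicular programme other than the rule's, 9 of 13 tested were higher in follicular helper cells than in marker-negative CD4 cells and 1 was lower (median log2 fold 1.22). Ascl2, a basic helix-loop-helix factor that induces Cxcr5, stood at 24.7 CPM in KO-DOX, 23.7 in KO-CTRL, 30.8 in WT-DOX and 26.2 in WT-CTRL, against 0 to 0.345 CPM in marker-negative cells and 0 in Foxp3-positive cells of every library. Maf, which drives Il21 and Il4, was at 335, 308, 286 and 351 CPM in follicular helper cells of KO-DOX, KO-CTRL, WT-DOX and WT-CTRL and at 29.0 to 50.8 CPM in marker-negative cells, so the sets did not overlap. As background, the libraries of the 2 sets did not overlap for 37.5% of all genes tested with follicular helper cells higher and 14.8% with them lower. The Maf log2 fold was 2.83 ± 0.08 (SE, n = 4 libraries, edgeR adjusted p = 1.13e-15) over marker-negative and 0.85 over activated cells, while it was 320 ± 28.7 CPM against 298 ± 39.7 CPM (SD) in Foxp3-positive cells (adjusted p = 0.558). Tcf7, the factor TCF1 that supports early follicular commitment and naive cells alike, averaged 958 ± 79.1 CPM in follicular helper cells against 773 ± 20.7 CPM in marker-negative cells (adjusted p = 0.219). It was higher than in activated cells (log2 0.57) and than in Foxp3-positive cells (log2 2.67, 146 ± 21.0 CPM there). Tox (log2 1.40, 1.28 and 0.85), Pou2af1, a B cell coactivator also found in follicular helper cells (2.76, 1.79 and 3.83), and Nfatc1 (1.59, 1.01 and 1.18) were higher than in marker-negative, activated and Foxp3-positive cells. The 1 factor of this list that was lower in all 3 comparisons was Bach2, a repressor of effector fates (log2 -2.93, -1.49 and -0.94).

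Genes held low in follicular helper cells moved the other way. Of 13 tested, 10 were lower and 0 higher against marker-negative cells (median log2 fold -1.78), 11 lower and 1 higher against activated cells (-1.63), and 9 lower and 1 higher against Foxp3-positive cells (-1.19). Klf2 stood at 117, 142, 144 and 90.6 CPM in follicular helper cells of KO-DOX, KO-CTRL, WT-DOX and WT-CTRL and at 640 to 810 CPM in marker-negative cells. Its log2 fold was -2.77 ± 0.08 (SE, edgeR adjusted p = 1.13e-15) against these, -1.82 against activated and -1.75 against Foxp3-positive cells. Ccr7, the receptor for T zone chemokines, was at 120 to 141 CPM in follicular helper cells and 555 to 675 CPM in marker-negative cells (log2 -2.43). S1pr1, the egress receptor (log2 -2.76, -1.95 and -1.19), and Selplg, a selectin ligand (-1.78, -1.63 and -1.80), were lower in all 3 comparisons. Prdm1, the repressor Blimp-1 that opposes Bcl6, was 10.5 CPM in follicular helper cells and 137 CPM in Foxp3-positive cells (log2 -3.69 ± 0.17, adjusted p = 3.8e-13). It was lower than in activated cells too (log2 -1.99), with a log2 fold of -0.16 against marker-negative cells that did not pass. Gpr183, the receptor for oxysterols that guides cells to the follicle edge, was the member that was higher, at log2 0.40 against activated and 0.72 against Foxp3-positive cells.

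Surface receptors followed the same pattern in part. Of 20 tested, 15 were higher and 2 lower than in marker-negative cells (median log2 fold 1.40), 9 of 19 higher and 4 lower than in activated cells (0.34), and 11 of 20 higher and 5 lower than in Foxp3-positive cells (0.42). Icos, the co-stimulator needed for follicular helper cells, was at 477, 425, 509 and 486 CPM in KO-DOX, KO-CTRL, WT-DOX and WT-CTRL, against 147 to 197 CPM in marker-negative cells (log2 1.29). It was lower than in activated cells (474 ± 35.6 against 541 ± 51.9 CPM, log2 -0.29, adjusted p = 0.026) and than in Foxp3-positive cells (890 ± 69.2 CPM, log2 -0.95). Cd200 was at 149, 194, 148 and 240 CPM in KO-DOX, KO-CTRL, WT-DOX and WT-CTRL, against 17.3 to 28.7 CPM in marker-negative cells (log2 2.78). P2rx7, the ATP receptor that restrains these cells in the gut (log2 2.60, 1.45 and 1.96), Btla (1.83, 1.21 and 2.0) and Slamf6, a SLAM receptor (1.52, 0.34 and 0.76), were higher than in marker-negative, activated and Foxp3-positive cells. Tigit, an inhibitory receptor, averaged 375 ± 82.7 CPM against 27.7 ± 15.9 CPM in marker-negative cells (log2 3.59 ± 0.12, adjusted p = 7.27e-15), with a log2 fold of 0.13 against Foxp3-positive cells that did not pass. S1pr2, which confines cells to the germinal centre, was low at 13.2 to 23.2 CPM, against 2.78 to 3.98 CPM in marker-negative cells (log2 2.25). Ctla4 (log2 -0.40 and -1.25) and Tnfrsf18 (-0.54 and -1.59) were lower than in activated and Foxp3-positive cells, and Il21r, the receptor for interleukin-21, was lower in all 3 comparisons (-1.01, -0.53 and -0.56).

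Ligands and adaptors that help B cells were higher against marker-negative cells in 11 of the 11 members tested, out of 16 listed (median log2 fold 2.09). Against activated cells 4 of 10 were higher and 0 lower (0.23), and against Foxp3-positive cells 8 of 11 were higher and 2 lower (3.12). Il4, the class switch cytokine, was at 79.4, 56.3, 91.4 and 81.6 CPM in KO-DOX, KO-CTRL, WT-DOX and WT-CTRL, against 0.862 to 3.55 CPM in marker-negative cells. Among genes of at least 50 CPM that were higher, this was the largest fold (log2 5.38 ± 0.21, SE, n = 4 libraries, edgeR adjusted p = 5.56e-14), and it held against activated cells (log2 3.42) and Foxp3-positive cells (5.11). An Il4 UMI was nevertheless present in only 20.3% of follicular helper cells in KO-DOX, 17.04% in KO-CTRL, 19.6% in WT-DOX and 26.1% in WT-CTRL. Cd40lg, which encodes CD40 ligand, was at 233, 262, 253 and 296 CPM in KO-DOX, KO-CTRL, WT-DOX and WT-CTRL, against 105 to 137 CPM in marker-negative cells (log2 0.85) and 25.6 ± 9.74 CPM in Foxp3-positive cells (log2 3.29). Tnfsf8, the CD30 ligand (log2 2.86, 1.20 and 3.76), and Sh2d1a, the SLAM adaptor SAP without which T cells cannot hold contact with B cells (2.10, 1.31 and 1.6), were higher than in marker-negative, activated and Foxp3-positive cells. Il10 was higher than in marker-negative (log2 1.99) and lower than in Foxp3-positive cells (-1.52).

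Of the other genes often listed for these cells, 12 of 13 were higher and 1 lower than in marker-negative cells (median log2 fold 1.88), 10 of 13 higher and 0 lower than in activated cells (0.79), and 12 of 14 higher and 1 lower than in Foxp3-positive cells (1.59). Tbc1d4, a regulator of vesicle traffic, was at 598, 550, 622 and 604 CPM in KO-DOX, KO-CTRL, WT-DOX and WT-CTRL, against 48.5 to 62.5 CPM in marker-negative and 180 ± 39.9 CPM (SD) in activated cells (log2 1.61 ± 0.12, adjusted p = 1.8e-08). Angptl2 (log2 4.27, 2.10 and 2.79), Cxxc5 (3.93, 3.12 and 5.44), Fam43a (4.12, 2.24 and 3.86) and Hif1a, the hypoxia factor (1.88, 1.19 and 0.98), were higher than in marker-negative, activated and Foxp3-positive cells.

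**Figure D3:**
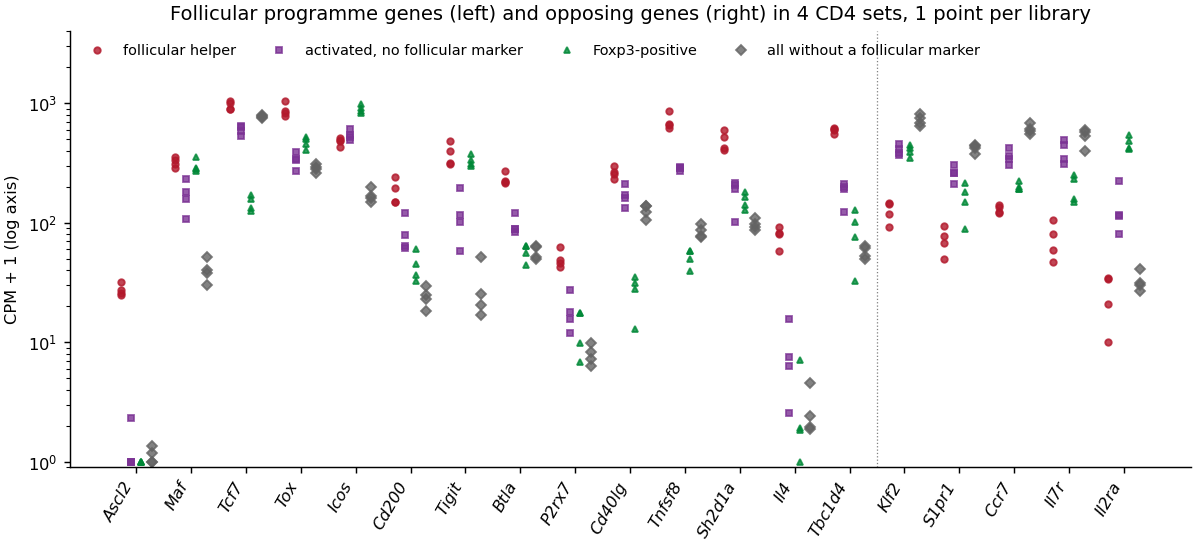
Levels of follicular programme genes (left of the dotted line) and of genes held low in follicular helper cells (right of it). Each point is 1 library, in CPM + 1 on a log axis, for follicular helper cells, activated cells with no follicular marker, Foxp3-positive cells and all CD4 cells with no follicular marker. Il4 and Tbc1d4 stand highest in follicular helper cells, Maf and Tigit lie at like levels in Foxp3-positive cells, and Klf2, S1pr1 and Ccr7 stand lowest in follicular helper cells.

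PD-1 is the receptor for PD-L1, the product of Cd274. The cells carried Cd274 transcripts themselves, at 168 CPM in KO-DOX, 144 in KO-CTRL, 115 in WT-DOX and 142 in WT-CTRL, with a UMI in 40.7% to 48.3% of the cells. Marker-negative cells held 60.6 to 75.0 CPM (log2 0.86 ± 0.08, adjusted p = 1.04e-08), while activated cells averaged 129 ± 11.2 CPM (adjusted p = 0.869) and Foxp3-positive cells 119 ± 8.55 CPM (adjusted p = 0.126). Pdcd1lg2, the other PD-1 ligand, was higher in follicular helper cells in all 3 comparisons (log2 2.36, 0.65 and 0.94). Ptpn11, which encodes SHP-2, the phosphatase recruited by PD-1, was at 492, 428, 471 and 458 CPM in KO-DOX, KO-CTRL, WT-DOX and WT-CTRL, against 85.2 to 93.0 CPM in marker-negative cells (log2 2.14), and was also above activated (1.36) and Foxp3-positive cells (2.44). Of the whole list of PD-1 ligands, B7 family and other inhibitory receptors, 5 of 10 were higher and 2 lower than in marker-negative cells (median log2 fold 0.75), 3 of 9 higher and 3 lower than in activated cells (0.04), and 5 of 11 higher and 4 lower than in Foxp3-positive cells (0.21). Cd160 was higher (log2 3.43, 1.81 and 2.69) and Cd96 was lower than in marker-negative (-0.75) and activated cells (-0.42).

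The genes with the largest folds under the naming rule were only in part textbook follicular genes. Padi4, a peptidylarginine deiminase, averaged 55.2 ± 22.3 CPM in follicular helper cells against 1.87 ± 0.645 CPM in marker-negative cells (SD, n = 4 libraries; log2 4.63 ± 0.23, SE, adjusted p = 2.04e-12) and 1.05 CPM in activated cells. Smtn (62.1 ± 21.1 against 1.78 CPM), Fbn2 (58.2 ± 16.0 against 1.89 CPM, with 0 UMIs in Foxp3-positive cells of all 4 libraries) and Gpm6b were likewise near absent from marker-negative cells. Eea1, an early endosome tether, averaged 487 ± 45.4 CPM against 37.7 CPM in marker-negative cells (log2 3.48) and was also above activated cells (1.56). Igfbp4, a gene of naive T cells, fell to 20.3 ± 3.897 CPM in follicular helper cells, against 518 ± 86.5 CPM in marker-negative cells (log2 -4.85 ± 0.09, adjusted p = 3.83e-18). Il7r, the receptor for interleukin-7, averaged 72.0 ± 26.0 CPM against 527 ± 89.5 CPM in marker-negative cells (log2 -3.14) and 397 ± 89.7 CPM in activated cells (-2.60). Ly6c1 (log2 -5.09), Pdlim4 (-5.16) and Il4ra (-3.22) were lower than in marker-negative cells as well.

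Set beside activated cells with no follicular marker, the lists of other helper fates differed. Of 11 type 1 helper genes tested, 0 were higher and 6 lower (median log2 fold -0.67), whereas 7 of 13 were higher and 2 lower against marker-negative cells (1.20). Of 3 type 2 helper genes, 1 was higher and 1 lower than in activated cells (-0.04), and of 4 type 17 helper genes 1 was higher and 1 lower (-0.47). Among the genes with the largest folds against activated cells, Gzmb, a granzyme, averaged 2.25 CPM in follicular helper cells against 82.1 CPM (log2 -5.45), Itgae, an integrin of tissue-resident cells, 5.16 against 56.8 CPM (-3.54), and Il2ra, the high-affinity interleukin-2 receptor chain, 23.9 against 132 CPM (-2.48). Ifng, the signature cytokine of type 1 helper cells, averaged 65.6 ± 18.1 CPM against 68.4 ± 25.0 CPM in activated cells (SD, adjusted p = 0.566) and was seen in 10.6% to 13.2% of follicular helper cells. Naive CD4 genes were lower in 13 of 13 tested against marker-negative cells (median log2 fold -2.65), 11 of 13 against activated cells (-1.56) and 9 of 13 against Foxp3-positive cells (-0.67). Against Foxp3-positive cells, 12 of 13 regulatory genes were lower and 1 higher (-2.29), among them Il2ra (23.9 against 464 CPM), and Klrg1 averaged 0.476 CPM against 67.2 CPM. Tnfsf11, which encodes RANK ligand (222 against 24.7 CPM, log2 3.12), and Ifng (log2 3.32) were higher.

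Interferon-induced genes were lower in follicular helper cells. Of the genes induced by type I interferon, 27 of 39 were lower and 6 higher than in marker-negative cells (median log2 fold -0.64), 12 of 30 lower and 0 higher than in activated cells (-0.49), and 23 of 33 lower and 0 higher than in Foxp3-positive cells (-0.64). Ifi213 was at 44.2, 34.6, 31.7 and 27.4 CPM in KO-DOX, KO-CTRL, WT-DOX and WT-CTRL, against 172 to 213 CPM in marker-negative cells (log2 -2.74), while Ifi27l2a went the other way at 1245 to 1544 CPM, against 517 to 693 CPM (0.88). Of the genes induced by interferon gamma, 10 of 20 were lower and 3 higher than in marker-negative cells (-0.30), 12 of 20 lower and 0 higher than in activated cells (-0.39), and 17 of 20 lower and 1 higher than in Foxp3-positive cells (-0.63). Irf1, a factor of that response, was at 219 to 248 CPM against 461 to 509 CPM in marker-negative cells (log2 -1.28). Cxcl10, a chemokine of that response, was higher, at 86.2 to 108 CPM against 13.3 to 23.0 CPM (2.25).

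Cell cycle genes set the cells apart from resting CD4 cells and less clearly from activated ones. G2 and M phase genes were higher in 35 of 36 against marker-negative cells (median log2 fold 3.06) and in 10 of 36 against activated cells (0.65), and lower in 31 of 36 against Foxp3-positive cells (-0.57). S phase genes were higher in 29 of 30 against marker-negative cells (1.58) and in 1 against activated cells, and lower in 24 against Foxp3-positive cells (-0.49). Glycolytic enzymes were higher in 13 of 17 and lower in 2 against marker-negative cells (0.92), and higher in 7 of 14 and lower in 0 against activated cells (0.29). Tpi1, triosephosphate isomerase, averaged 126 ± 22.2 CPM against 26.6 ± 1.96 CPM in marker-negative cells (SD, log2 2.04), while the glucose transporter gene Slc2a3 was lower (8.23 ± 3.70 against 14.7 ± 3.06 CPM, log2 -1.04). Mitochondrially encoded genes were lower in 11 of 11 against marker-negative cells (-1.24) and in 0 of those tested against the other 2 sets. In the BCL2 family, Bcl2 itself averaged 68.9 ± 7.49 CPM against 173 ± 31.0 CPM in marker-negative cells (log2 -1.53), and Bcl2l11, which encodes the death inducer BIM, 16.3 ± 3.54 against 49.5 ± 5.47 CPM (-1.87). Early targets of the T cell receptor were higher in 9 of 18 and lower in 6 (0.23), with Egr2 higher (19.4 ± 4.05 against 3.07 ± 0.749 CPM, log2 2.43) and Nr4a1 lower (161 ± 29.6 against 224 ± 12.1 CPM, log2 -0.72).

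The cells also differed among themselves by how many markers they held. Cells with 3 or more markers (195, 165, 120 and 135 in KO-DOX, KO-CTRL, WT-DOX and WT-CTRL) were deeper than cells with 2 (155, 152, 79 and 118), with median UMI counts of 4094, 5167, 4374.5 and 5359 against 3546, 4091.5, 4217 and 4415. In a separate fit of the same form, 90 of 7919 genes (1.14%) were higher and 119 (1.5%) lower in cells with 3 or more markers (edgeR, adjusted p under 0.05). These counts depend on the method: without the library block they were 38 and 55, and without KO-DOX, KO-CTRL or WT-DOX the higher genes numbered 57, 54 and 46. The lower genes numbered 72 without KO-DOX and 73 without WT-DOX. Padi4 was at 53.3, 89.0, 133 and 70.8 CPM in cells with 3 or more markers of KO-DOX, KO-CTRL, WT-DOX and WT-CTRL, against 10.6, 15.5, 9.54 and 6.05 CPM in cells with 2. The levels did not overlap (log2 2.82 ± 0.23, SE, adjusted p = 1.44e-07), as was so for 4.03% of the genes with cells of 3 or more markers higher and 2.26% with them lower. Dnase1l3, a nuclease, averaged 66.0 ± 22.8 against 15.9 ± 6.69 CPM (log2 1.95 ± 0.22, adjusted p = 1.2e-05), and Ascl2 averaged 41.5 ± 5.33 against 4.79 ± 4.63 CPM (2.82, adjusted p = 5.68e-05). Il4 averaged 101 ± 19.3 against 43.6 ± 14.2 CPM (log2 1.10 ± 0.18, adjusted p = 0.000465). Asb2, an E3 ligase subunit (log2 1.55), and Tubb2a (1.38) were higher too, and Ctsl (1.61) was higher but lost its call after thinning to 2000 UMIs, at 1.03.

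Genes opposed to the programme fell further in cells with 3 or more markers: 8 of 13 tested were lower and 0 higher (median log2 fold -0.85), beside 5 higher and 2 lower of 13 follicular transcription factors (0.34). Il7r averaged 35.5 ± 13.4 CPM in cells with 3 or more markers against 126 ± 60.03 CPM in cells with 2 (log2 -1.79 ± 0.18, adjusted p = 2.87e-06). Ccr7 averaged 89.3 ± 17.2 against 186 ± 17.7 CPM (log2 -1.07, adjusted p = 1.88e-05) and Klf2 83.0 ± 26.1 against 183 ± 58.3 CPM (-1.12). The Klf2 fold was -0.41 and did not pass after thinning to 2000 UMIs, nor did it pass in DESeq2 (-1.18). Nkg7, a cytotoxic granule gene, averaged 29.6 against 81.2 CPM (-1.43). Icos went against the grade, at 423 ± 15.8 against 549 ± 72.3 CPM (log2 -0.41, adjusted p = 0.00595), and Cd40lg averaged 275 ± 29.7 against 240 ± 31.8 CPM (adjusted p = 0.711). P2rx7 (log2 0.85, higher in 3 of 4 libraries) and Ifitm2 (-1.33) passed in the fit above and not in DESeq2 or without the library block. P2rx7 also did not pass without KO-DOX (0.87), KO-CTRL (0.60) or WT-DOX (0.76), nor Ifitm2 without KO-DOX (-0.65).

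**Figure D4:**
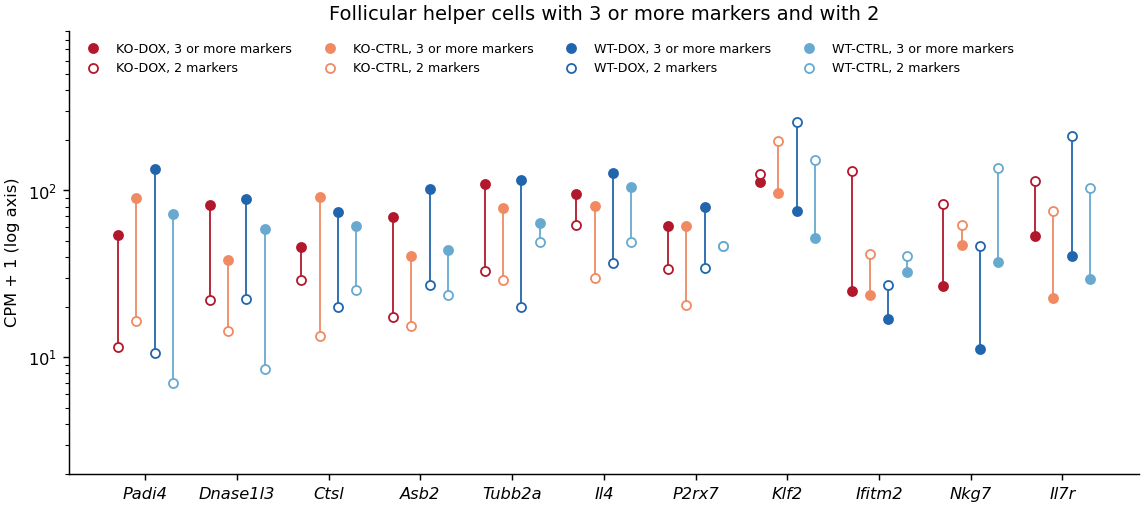
Levels of 11 genes in follicular helper cells with 3 or more markers (filled) and with 2 markers (open), 1 point for each library, in CPM + 1 on a log axis. Padi4 separates fully, at 53.3 to 133 CPM against 6.05 to 15.5 CPM, and Il7r is lower in the cells with more markers.

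Cells just outside the rule, with the same gates and exactly 1 marker, numbered 437, 548, 423 and 454 in KO-DOX, KO-CTRL, WT-DOX and WT-CTRL, and are described with no test. They were shallower, with medians of 2790 to 3225 UMIs, and 40.9% to 46.0% held a Cd4 UMI. A Cd4 UMI was held by 65.2% to 77.0% of cells with 2 markers and 79.0% to 89.6% with 3 or more. Tbc1d4 stood at 660 to 753 CPM in cells with 3 or more markers, 405 to 473 CPM in cells with 2 and 150 to 254 CPM in cells with 1. Il4 stood at 79.4 to 125, 29.0 to 61.1 and 9.80 to 21.7 CPM in these 3 sets, and Ccr7 ran the other way at 67.1 to 108, 172 to 212 and 418 to 552 CPM. The 3 ranges were apart for each of these genes, and the share of all genes with ranges apart was not taken. Maf did not separate as cleanly (317 to 401, 236 to 325 and 102 to 163 CPM). Icos stood highest in the cells with 2 markers (402 to 441, 451 to 620 and 265 to 422 CPM).

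Which markers a cell held went with other genes. As a member without a given marker must hold 2 of the other 5, these splits are given as values with no test. Ifng was seen in 7.81% of Tox2-positive against 23.5% of Tox2-negative follicular helper cells of KO-DOX, in 11.9% against 16.7% of KO-CTRL, in 7.45% against 23.7% of WT-DOX, and in 5.56% against 28.8% of WT-CTRL. It was thus less often seen in Tox2-positive cells of all 4 libraries. Nkg7 followed the same split, at 11.3 to 52.4 CPM with and 72.1 to 115 CPM without a Tox2 UMI. Il21-positive cells held more Tnfsf8 (869, 889, 848 and 974 CPM in KO-DOX, KO-CTRL, WT-DOX and WT-CTRL, against 524, 398, 536 and 756 CPM in Il21-negative cells). Maf, Icos and Cd200 were also higher with an Il21 UMI in 4 of 4 libraries. Cxcr5-positive cells showed the reverse for Tnfsf8, at 445 to 632 CPM against 737 to 1062 CPM in Cxcr5-negative cells, and Icos was lower with Cxcr5 in 4 of 4 libraries as well. Cxcr5-positive cells held more Padi4, at 54.7, 79.5, 141 and 80.0 CPM in KO-DOX, KO-CTRL, WT-DOX and WT-CTRL, against 19.7, 39.4, 39.9 and 16.4 CPM in Cxcr5-negative cells. Sostdc1-positive cells held more Il4 (105 to 133 CPM against 37.4 to 78.8 CPM) and less Nkg7 (0 to 35.6 CPM against 31.0 to 94.7 CPM).

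Between libraries, gene levels of the follicular helper cells are given as CPM of their summed UMIs, and a gene is counted as apart when its CPM + 1 ratio was at least 1.5-fold among genes with a mean of at least 50 CPM. KO-DOX against KO-CTRL had 23 of 3620 genes higher (0.635%) and 28 lower (0.773%), and WT-DOX against WT-CTRL had 63 of 3685 higher (1.71%) and 61 lower (1.66%). KO-CTRL against WT-CTRL had 30 of 3624 higher (0.828%) and 24 lower (0.662%), and KO-DOX against WT-DOX had 27 of 3684 higher (0.733%) and 60 lower (1.63%). With non-overlapping counting intervals required as well, the higher and lower genes were 52 (1.41%) and 56 (1.52%) for WT-DOX against WT-CTRL and 20 (0.543%) and 50 (1.36%) for KO-DOX against WT-DOX, with no loss in the other comparisons. The 95% counting interval of a gene's ratio lay above 1 for 9.14% of genes and below 1 for 10% in KO-DOX against KO-CTRL, and for 13.4% and 8.49% in WT-DOX against WT-CTRL. The shares were 8.86% above and 9.27% below in KO-CTRL against WT-CTRL, and 6.87% and 12.1% in KO-DOX against WT-DOX. The median log2 ratio over all genes was -0.01, 0.06, 0.00 and -0.05 in these 4 comparisons. Scaling by the median of ratios moved the splits to 38 higher and 75 lower for WT-DOX against WT-CTRL, and to 46 higher and 34 lower for KO-DOX against WT-DOX. The comparisons share libraries, so each is given by its own values.

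Targets of p53, the factor that DNA damage activates, were higher in WT-DOX than in WT-CTRL follicular helper cells. The 10 members with at least 50 CPM were all positive with a median log2 ratio of 0.48, 9 had a counting interval above 1 (13.4% of all genes did) and 3 were at least 1.5-fold. In marker-negative CD4 cells of the same libraries the list's median was 0.05, over 7 genes. In KO-DOX against KO-CTRL the median was 0.14, with 9 of 10 positive, 4 with an interval above 1 (9.14% of all genes) and 2 at least 1.5-fold. Trp53inp1 was at 209, 137, 236 and 130 CPM in KO-DOX, KO-CTRL, WT-DOX and WT-CTRL, above its control in both doxorubicin libraries (log2 0.61 and 0.86). Ccng1, cyclin G1, was at 210, 154, 253 and 153 CPM in the same libraries (log2 0.45 and 0.72), and Ddit4, an inhibitor of mTORC1 listed with the p53 targets, at 135, 83.8, 114 and 41.7 CPM (log2 0.68 and 1.43). Ddit4 was also higher in KO-CTRL than in WT-CTRL (log2 0.99). In marker-negative cells its log2 ratio in WT-DOX against WT-CTRL was 0.86. Summed over the list the levels were 2384 CPM in KO-DOX, 2020 CPM in KO-CTRL, 2819 CPM in WT-DOX and 2026 CPM in WT-CTRL. In KO-DOX against WT-DOX 1 of 11 members was positive, and 5 were lower with an interval off 1 (12.1% of all genes) and 0 by 1.5-fold (median log2 ratio -0.23). The sum was lower in cells with Mki67 or Top2a (1812, 1596, 2263 and 1561 CPM in KO-DOX, KO-CTRL, WT-DOX and WT-CTRL) than in the others (2838, 2445, 3132 and 2429 CPM).

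S phase genes stood out in KO-CTRL. Their sum was 2102 CPM in KO-DOX, 2900 CPM in KO-CTRL, 2103 CPM in WT-DOX and 2077 CPM in WT-CTRL. In KO-DOX against KO-CTRL 18 of 18 were negative, 15 with an interval below 1 (10% of all genes) and 5 at least 1.5-fold (median log2 ratio -0.42). In KO-CTRL against WT-CTRL 17 of 17 were positive, 15 with an interval above 1 (8.86% of all genes) and 4 at least 1.5-fold (0.45). Rrm2, a subunit of ribonucleotide reductase, was at 125, 205, 119 and 107 CPM in KO-DOX, KO-CTRL, WT-DOX and WT-CTRL. Cells with Mki67 or Top2a were 24.0% of KO-DOX and 27.4% of KO-CTRL cells, and without these cells the list's median in KO-DOX against KO-CTRL was 0.03, as it was after thinning to 2000 UMIs. G2 and M phase genes were higher in KO-DOX than in WT-DOX in 22 of 22 members (median 0.43), 16 of them with an interval above 1 (6.87% of all genes), with Tacc3 at 75.8, 58.2, 42.6 and 50.05 CPM in KO-DOX, KO-CTRL, WT-DOX and WT-CTRL. That median was -0.0023 without cells with Mki67 or Top2a and -0.51 without cells with B cell transcripts. In marker-negative cells only 2 genes of the list were counted, with a median of 0.22.

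Early targets of the T cell receptor had a median log2 ratio of 0.26 in WT-DOX against WT-CTRL over 13 genes, 8 with a counting interval above 1 (13.4% of all genes), and of -0.16 in KO-DOX against WT-DOX, with 8 intervals below 1 (12.1% of all genes). In marker-negative cells the medians were 0.13 and -0.17, each over 11 genes. Tnfrsf9, which encodes 4-1BB, was at 26.8, 64.9, 92.3 and 54.2 CPM in KO-DOX, KO-CTRL, WT-DOX and WT-CTRL. Its log2 ratio in KO-DOX against WT-DOX was -1.75, the lowest after Zbed5 among genes the rule named, and the value was -0.44 after thinning. The medians of the 5 follicular lists lay between 0.05 and 0.26 in KO-DOX against KO-CTRL, -0.12 and 0.14 in WT-DOX against WT-CTRL, -0.18 and -0.09 in KO-CTRL against WT-CTRL, and -0.19 and 0.06 in KO-DOX against WT-DOX. The highest was that of the other genes often listed for these cells in KO-DOX against KO-CTRL. There 7 of 9 intervals lay above 1 (9.14% of all genes) and 1 below (10% of all genes). In KO-CTRL against WT-CTRL 7 of 18 surface receptors had an interval below 1 (9.27% of all genes) and 0 above (8.86%). Mitochondrially encoded genes were lowest in KO-DOX, at a sum of 360 CPM against 495 CPM in KO-CTRL, 465 CPM in WT-DOX and 507 CPM in WT-CTRL. KO-DOX was also lowest in marker-negative cells (727 against 961 to 970 CPM) and in activated cells (376 against 463 to 721 CPM). In Foxp3-positive cells it stood at 438 CPM, with KO-CTRL lowest at 431 CPM. Mitochondrially encoded genes were rare in every library. Their median share of a cell's UMIs was 0% to 0.0248% in follicular helper cells and 0.0323% to 0.0642% in kept barcodes. Cell quality was therefore not read from them.

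**Figure D5:**
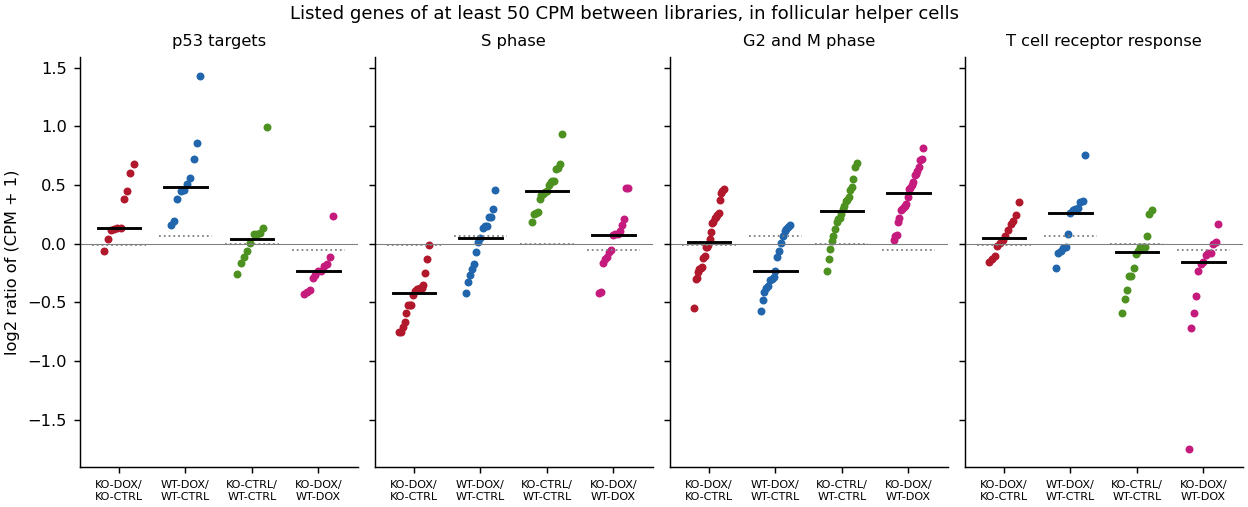
Log2 ratio of (CPM + 1) in follicular helper cells for each gene of at least 50 CPM of 4 lists in the 4 comparisons of libraries. Points are genes, black bars list medians and dotted lines the median over all genes. The p53 targets lie above 0 in WT-DOX against WT-CTRL (median 0.48), and the S phase genes lie below 0 in KO-DOX against KO-CTRL (-0.42) and above 0 in KO-CTRL against WT-CTRL (0.45).

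The largest single differences in KO-DOX against KO-CTRL were few and often rested on few cells. Ifitm1 had 191 UMIs in KO-DOX and 0 in KO-CTRL, but these came from 3 cells, 124 of them from 1 cell. Lmo4 was at 75.8 against 39.8 CPM (log2 0.91) and Il7r at 79.4 against 45.9 CPM (0.78), while Rnf24 was at 42.1 against 77.2 CPM (-0.86). Gbp2, a guanylate binding protein induced by interferon gamma, was at 32.1 against 79.5 CPM (-1.28). S100a4 was at 158 against 73.4 CPM (1.09) and had a log2 ratio of -0.08 after thinning. Penk, the enkephalin precursor, was at 46.8 against 116 CPM, and 122 of its 244 UMIs in KO-CTRL came from 1 cell.

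In WT-DOX against WT-CTRL, Zbed5 had 326 UMIs in 124 cells of WT-DOX and 2 UMIs in WT-CTRL, a ratio of 248 (exact 95% interval 68.0 to 2054). It was also 3 UMIs in KO-DOX against 326 in WT-DOX, a ratio of 0.00535 (0.00110 to 0.0158), and marker-negative CD4 cells showed the same difference (log2 6.85 in WT-DOX against WT-CTRL), so it marked the WT-DOX library in both sets. Ehbp1 was at 84.2 against 17.3 CPM (log2 2.22), Asb2 at 72.4 against 35.2 CPM (1.02) and Smtn at 92.3 against 44.1 CPM (1.05). Ehbp1 shifted in marker-negative cells as well, at 91.8 against 27.4 CPM (log2 1.71). Asb2 and Smtn were near absent there, at 0.742 to 1.40 CPM. Asb2 was also higher in cells with more markers, and Smtn in follicular helper cells against marker-negative cells. Wdr43 was at 66.995 against 132 CPM (-0.96), with a log2 ratio of -0.55 in marker-negative cells. The chaperonins Hspd1 (225 against 447 CPM) and Hspe1 (176 against 342 CPM) were lower, but 312 of 751 and 173 of 574 of their WT-CTRL UMIs came from 1 cell.

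In KO-CTRL against WT-CTRL 3 of the 6 genes with the largest higher ratios encode histones, with Hist1h2ak at 132 against 14.9 CPM (log2 3.07), Hist1h1d at 174 against 79.8 CPM (1.11) and Hist1h1b at 1590 against 785 CPM (1.02). Hist1h1b had a log2 ratio of -0.78 without cells holding Mki67 or Top2a. The other 3 were Penk (116 against 41.7 CPM, 1.45), the RNA-binding protein gene Hnrnpa0 (136 against 63.7 CPM, 1.08) and Ddit4. In marker-negative CD4 cells these 3 were higher too, at log2 0.55 for Penk (10.5 against 6.86 CPM), 1.25 for Hnrnpa0 and 0.71 for Ddit4. The 3 histone genes were lower there. Of the Penk UMIs in follicular helper cells, 122 of 244 in KO-CTRL and 37 of 70 in WT-CTRL came from 1 cell each. Slc15a2 was at 46.9 against 87.6 CPM (-0.89) and Dusp4, a phosphatase that damps MAP kinases, at 54.4 against 100 CPM (-0.87). In marker-negative cells their log2 ratios were -0.69 and -0.15. In KO-DOX against WT-DOX, Padi4 was at 34.2 against 86.0 CPM (-1.31), Rgs16 at 53.1 against 107 CPM (-0.99) and Tgfbr1 at 38.9 against 73.3 CPM (-0.90). Lmo4 was at 75.8 against 42.6 CPM (0.82).

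Receptor beta segment use was described as shares of all Trbv UMIs, since clones can be large and the number of mice is unknown. Trbv3 took 14.4% of them in follicular helper cells of KO-DOX, 16.0% in KO-CTRL, 14.1% in WT-DOX and 16.9% in WT-CTRL, against 6.24%, 8.001%, 8.17% and 8.17% in marker-negative CD4 cells of the same libraries. In activated cells it took 6.67% to 9.90%. Trbv15 ran the other way, at 2.21%, 4.22%, 1.46% and 1.62% in follicular helper cells of KO-DOX, KO-CTRL, WT-DOX and WT-CTRL, against 6.10% to 8.88% in marker-negative cells. Of the 16 segments that reached 3% in any set and library, 3 took a larger and 5 a smaller share in follicular helper cells than in marker-negative cells of all 4 libraries. The ranges of the sets were apart for 6 segments, with Trbv3 and Trbv29 above and Trbv13-1, Trbv13-3, Trbv14 and Trbv15 below. Some of these rest on few follicular helper cells. In KO-DOX, KO-CTRL, WT-DOX and WT-CTRL, Trbv29 came from 12, 9, 7 and 13 cells and Trbv14 from 7, 4, 0 and 5. In KO-CTRL 40 of 106 Trbv29 UMIs and 23 of 28 Trbv14 UMIs came from 1 cell. Trbv13-1 took 4.95%, 3.58%, 7.09% and 4.74% in KO-DOX, KO-CTRL, WT-DOX and WT-CTRL, against 8.77% to 9.67% in marker-negative cells, but in activated cells it ranged from 4.16% to 11.8%. Trbv1 took 19.8%, 17.5%, 20.4% and 11.4% in follicular helper cells, against 15.1%, 11.8%, 11.2% and 12.01% in marker-negative cells of KO-DOX, KO-CTRL, WT-DOX and WT-CTRL, and so did not separate them in WT-CTRL. The Trbv3 UMIs in KO-DOX came from 59 follicular helper cells, with at most 30 in 1 cell.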

How the data were processed

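Live T cells from 4 libraries (SeekOne 5' kit, per the labels' protocols) were analysed. The values deposited by the authors are raw counts of UMIs per gene and barcode. Per the submitters' processing notes reads were set against mm10. Which aligner and cell caller were run is not given in the sources used here. Among 48597 deposited barcodes the lowest total was 500 UMIs, and the libraries held 10372, 12959, 12438 and 12828 barcodes in KO-DOX, KO-CTRL, WT-DOX and WT-CTRL.

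Cells were taken by the UMI rule stated in the opening, and UMIs were summed per library and cell set. The members, gene lists and comparisons were chosen with earlier results of these data known. Shares have exact Clopper-Pearson 95% intervals, share ratios intervals from the log method, and CPM exact Poisson intervals. All cover counting error only. Libraries were not tested against each other, as no group has a replicate. Cell sets were compared with edgeR 4.0.16 (TMM, filterByExpr, quasi-likelihood test, library as a block; R 4.3.3), with DESeq2 1.42.0 as an alternative. Code ran in Python 3.11.15 with numpy 2.4.6, scipy 1.17.1, pandas 2.3.3, scikit-learn 1.9.0 and matplotlib 3.10.9. The level comparison between libraries and the edgeR fit between cell sets were tried on simulated summed counts. These held no large counts from single cells. Shares, share ratios, list medians, segment shares and the doublet score were not tried on simulated data.

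No doublets were removed from the main set. A doublet score by the Scrublet formula (30 components, 2000 genes, 6% expected) marked 6, 5, 1 and 4 follicular helper cells of KO-DOX, KO-CTRL, WT-DOX and WT-CTRL above 0.25, and their removal is an alternative. Other alternatives were 3 or more markers, a Cd4 UMI required, thinning to 2000 UMIs, stricter quality limits (800 genes, 5% mitochondrial UMIs), removal of cells with B cell, Trdc or cycling transcripts, other marker sets, denominators, scalings, filters and pseudocounts, and leaving out each library. Removal of barcodes found in more than 1 library was added after the data were seen.

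Genes were named by rule. Receptor and immunoglobulin segments and the rule's genes were left out. Between libraries the 6 largest ratios in each direction with at least 50 CPM and intervals apart could be named, and between cell sets the 12 largest folds in each direction. Every measured follicular or PD-1 list gene, up to 3 in each direction of each other list, and the 4 largest opposite doxorubicin responses in each direction could be named. The genes split by marker were chosen after their values were seen. A few genes picked by this rule are left out of the text.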

Additional observations from a re-analysis of the deposited data

Results flagged for a closer look

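The share of follicular helper cells moved in opposite directions with doxorubicin in the 2 genotypes, at 1.39 times the control library in KO mice and 0.808 times in WT mice. The difference was not tested, since each group has 1 library. The WT ratio's interval left out 1 in 4 of 13 other ways of counting, and the ratio was 0.926 after thinning to 2000 UMIs.

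Of 3468 genes with a counting interval for both responses, 23 had opposite doxorubicin responses with both intervals off 1, 7 of them higher in KO mice. Over all genes the interval lay above 1 for 9.14% and below 1 for 10% in KO mice. In WT mice it did so for 13.4% and 8.49%. The 23 genes were thus a small part of those with an interval off 1, and their number is a description only. The genes with the largest difference, KO response minus WT response on the log2 scale, were these, none of them tested. Cd83 differed by 1.19 (118, 82.4, 79.7 and 128 CPM in KO-DOX, KO-CTRL, WT-DOX and WT-CTRL), Gramd3 by 0.90 (374, 267, 287 and 385 CPM), Pfkp by 0.75 (99.96, 79.1, 67.9 and 91.2 CPM) and Cdk8 by 0.71 (1295, 953, 846 and 1018 CPM). In the other direction Penk differed by -1.81 (46.8, 116, 60.7 and 41.7 CPM), Rgs16 by -0.98 (53.1, 77.6, 107 and 78.6 CPM), Klf2 by -0.93 (117, 142, 144 and 90.6 CPM) and Endod1 by -0.91 (74.7, 110, 138 and 107 CPM). Several of these responses changed sign when the cells were chosen or thinned differently. After thinning the KO response was -0.19 for Pfkp and the WT response 0.054 for Gramd3 and -0.29 for Rgs16, while Cdk8 changed sign in both (-0.17 in KO mice and 0.051 in WT mice). The KO response of Penk was 0.75 without cells with B cell transcripts, and its WT response -0.29 with 3 or more markers and -0.41 with a Cd4 UMI required. Of its UMIs, 122 of 244 in KO-CTRL and 37 of 70 in WT-CTRL came from 1 cell each. The KO response of Klf2 was 0.23 with 3 or more markers.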

How the results depend on the processing

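No paired analysis was possible because each group has 1 library, so this holds for comparisons between libraries; cell sets were compared within libraries, with library as a block, and without it as an alternative. Of the share ratios under the alternatives, 63 of 65 moved by less than their interval; KO-DOX over WT-DOX was 1.74 among cells with a Cd4 UMI and 1.74 with Cxcr5 required. Named genes between cell sets kept their call in 943 of 977 values and reversed in 0, list medians between libraries stayed in 887 of 988 and named genes between libraries in 697 of 819.

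Counts of genes at least 1.5-fold apart, higher and lower, moved as follows. For doxorubicin in KO mice, doxorubicin in WT mice, the knockout under control treatment and the knockout under doxorubicin, they were 50 and 52, 169 and 164, 50 and 65, and 50 and 100 with 3 or more markers; 184 and 162, 406 and 247, 217 and 273, and 195 and 352 after thinning; 86 and 127, 218 and 122, 133 and 84, and 98 and 191 without B cell transcripts; and 1940 and 1326, 2285 and 2434, 1455 and 1947, and 2289 and 2229 with no filter. Without cycling cells the higher counts were 49, 124 and 56 in the first 3 comparisons, and 64 were lower in KO-CTRL against WT-CTRL. That comparison had 59 higher without shared barcodes, 42 lower with equal weight per cell, 46 higher without the cell with most UMIs and 15 lower with CPM + 5. WT-DOX against WT-CTRL had 35 lower without that cell and 38 higher with median-of-ratios scaling. KO-DOX against WT-DOX had 46 higher and 34 lower with that scaling and 49 higher without Trdc cells.

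Between cell sets, genes higher and lower against marker-negative cells numbered 1468 and 1369 after thinning. Against activated cells they were 175 and 356 with DESeq2, 207 and 309 after thinning, 614 higher with no filter, 217 higher without B cell transcripts, and 193 to 510 and 378 to 696 with 1 library left out, lowest without WT-CTRL. Against Foxp3-positive cells they were 560 and 690 with DESeq2, 405 and 525 after thinning, and 387 and 539 without B cell transcripts. For 3 or more markers against 2 they were 18 and 22 with DESeq2, 150 and 192 with no filter, 38 and 55 without the library block, 42 and 77 after thinning, and 46 to 130 and 72 to 159 with 1 library left out.

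List medians that changed sign were the PD-1 list in KO-DOX against KO-CTRL (-0.14 without B cell transcripts, -0.053 without cycling cells, -0.044 at 10 CPM), S phase there (0.030 after thinning, 0.031 without cycling cells), G2 and M phase in WT-DOX against WT-CTRL (0.17 after thinning, 0.36 without B cell transcripts, 0.085 without shared barcodes), in KO-CTRL against WT-CTRL (-0.059 without cycling cells) and in KO-DOX against WT-DOX (-0.51 without B cell transcripts, -0.0023 without cycling cells), mitochondrially encoded genes in KO-DOX against WT-DOX (0.11 after thinning, 0.031 without cycling cells) and regulatory genes there (0.16 after thinning). Genes that changed sign after thinning were S100a4 (-0.081), Fabp5 (1.19), Pfkp (-0.19) and Cdk8 (-0.17) in KO-DOX against KO-CTRL, Hspd1 (0.61), Gramd3 (0.054), Cdk8 (0.051) and Rgs16 (-0.29) in WT-DOX against WT-CTRL, and S100a4 (-0.19) and Tacc3 (-0.28) in KO-DOX against WT-DOX. Without cycling cells they were Fabp5 (0.067), Hist1h1a (1.20), Hspd1 (0.12), C1qbp (0.045), Hist1h1b (-0.78) and Hist1h1d (-0.32). Penk was 0.75 without B cell transcripts in KO-DOX against KO-CTRL, and -0.29 with 3 or more markers and -0.41 with a Cd4 UMI required in WT-DOX against WT-CTRL. Klf2 was 0.23 with 3 or more markers in KO-DOX against KO-CTRL. The causes were not tested.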
